A study of Homo sapiens with 3 samples.

Results

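The muscle miRNAs, or myomiRs, are a small set of miRNAs named for their high levels in heart and skeletal muscle. Their levels were examined in MV4-11, a human acute myeloid leukemia cell line with a duplication within FLT3 (FLT3-ITD+). The study also describes the line as positive for MLL-AF4, a fusion protein. Members were chosen by name: every row for the hairpins mir-1-1, mir-1-2, mir-133a-1, mir-133a-2, mir-133b, mir-206, mir-208a, mir-208b and mir-499a, and every row for the mature arms they give. Of these 9 hairpins, 5 had a row among the 661 hairpins, namely hsa-mir-1-1, hsa-mir-1-2, hsa-mir-133a-1, hsa-mir-133a-2 and hsa-mir-499a, written below without the species prefix. Of the 783 mature names, 4 were members: miR-1, miR-133a-3p, miR-133a-5p and miR-499a-5p, in 7 of the 851 mature rows. The other 4 hairpins of the set, mir-133b, mir-206, mir-208a and mir-208b, were not analysed here.

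All 3 libraries came from a single group, labelled wild type, of MV4-11 cells infected with an empty vector (EV) version of a lentiviral CRISPR-Cas9 construct and grown for 2 weeks before RNA extraction. Small RNA was sequenced from triplicate cultures, which are called replicates 1 to 3. The series holds no muscle sample and no uninfected sample, so no level could be set against a control, and the spread given is that between cultures of 1 cell line. Mature miRNAs took 12694823, 10991953 and 11682129 counts in the 3 replicates. Replicate 1 stood apart from the others in its composition: miR-21-5p alone took 38.5% of its mature counts, against 26.8% and 20.2% in replicates 2 and 3.

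miR-1 and miR-133a are transcribed together from a pair of loci, each holding one copy of each, under muscle transcription factors such as MEF2, SRF and MyoD. miR-1 is known for promoting the differentiation of muscle cells, and miR-133a for its part in myoblast proliferation and in restraining smooth muscle genes in the heart. miR-499a lies in an intron of a myosin heavy chain gene, MYH7B, and belongs with miR-208a and miR-208b to the miRNAs encoded within myosin genes. miR-206 and miR-133b come from a further locus that is active in skeletal muscle.

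The mature sequences fall into families by the seed, bases 2 to 8 from the 5′ end, which does most of the pairing with a target. They are shown, from RefSeq with GRCh38.p14, with the seed in capitals, because the families and the last bases decide which reads can be told apart.
miR-1-3p: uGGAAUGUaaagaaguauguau
miR-206: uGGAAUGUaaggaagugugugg
miR-133a-3p: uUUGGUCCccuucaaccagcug
miR-133b: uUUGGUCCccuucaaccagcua
miR-133a-5p: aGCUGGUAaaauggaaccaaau
miR-499a-5p: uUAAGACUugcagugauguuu
miR-208a-3p: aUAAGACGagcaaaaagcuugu
miR-208b-3p: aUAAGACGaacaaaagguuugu

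With positions counted from the 5′ end and the base of the first-named miRNA written first, miR-1-3p and miR-206 shared their seed and differed at 4 bases, A11G, A17G, A21G and U22G. miR-133a-3p and miR-133b differed only at the last base, G22A, so a read that ends before that base is the same for both. The seed of miR-499a-5p matched that of miR-208a-3p and miR-208b-3p at bases 2 to 7 and not at base 8. No other mature miRNA of the reference table had the seed of miR-133a-5p.

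The hairpins are shown with the listed mature arms in capitals, because a mature read is identical for both copies and only the flanks differ.
mir-1-1: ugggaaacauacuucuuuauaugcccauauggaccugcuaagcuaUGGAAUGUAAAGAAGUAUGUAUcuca
mir-1-2: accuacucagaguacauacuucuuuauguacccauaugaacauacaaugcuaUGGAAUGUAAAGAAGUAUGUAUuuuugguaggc
mir-133a-2: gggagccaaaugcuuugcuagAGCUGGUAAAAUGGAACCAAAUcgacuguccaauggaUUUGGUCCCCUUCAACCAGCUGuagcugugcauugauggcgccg
mir-133a-1: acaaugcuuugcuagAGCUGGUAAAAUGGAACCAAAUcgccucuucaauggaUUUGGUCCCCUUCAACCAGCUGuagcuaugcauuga
mir-499a: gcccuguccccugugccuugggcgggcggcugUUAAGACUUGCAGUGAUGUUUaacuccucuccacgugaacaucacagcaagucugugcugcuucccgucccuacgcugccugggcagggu

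The copies of miR-1-3p shared 4 bases before the mature arm and 0 bases after it, where mir-1-1 has C and mir-1-2 has U. The copies of miR-133a-3p shared 7 bases before the arm and 5 bases after it, and those of miR-133a-5p shared 13 and 2. A read extended by 1 base at its 3′ end therefore remains ambiguous for either arm of miR-133a and not for miR-1. In GRCh38.p14, mir-1-1 lies at chr20:62554306-62554376 on the plus strand, in an intron of the noncoding host gene MIR1-1HG by GENCODE release 29. mir-133a-2 lies downstream at chr20:62564912-62565013, with 25 of its 102 bases in an exon of the same host. On the minus strand of chromosome 18, mir-1-2 at chr18:21829004-21829088 and mir-133a-1 at chr18:21825698-21825785 both lie within exons of MIR133A1HG, and the gene MIB1 runs over them on the other strand. mir-499a is at chr20:34990376-34990497, in an intron of MYH7B.

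miR-1 was the most abundant muscle miRNA in all 3 libraries, followed by miR-499a-5p, miR-133a-3p and miR-133a-5p. Levels are given as counts and as FPKM, the deposited counts divided by feature length and library total, with the rows of a name summed. miR-1 had 1091, 845 and 865 counts in replicates 1, 2 and 3, or 4092, 3660 and 3525 FPKM. Its mean of 3759 ± 296 FPKM (SD, n = 3) ranked 194 of 783 mature names. These values lay within a narrow band, with replicate 1 the highest. Because ligation of adapters depends on sequence, levels of different miRNAs are not strict molar ratios.

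miR-499a-5p had 116, 191 and 153 counts, or 457, 869 and 655 FPKM, lowest in replicate 1 and highest in replicate 2. Its mean was 660 ± 205.98 FPKM (SD, n = 3), rank 323. miR-133a-3p, the arm of miR-133a usually taken as the guide strand, had 44, 92 and 108 counts, or 165, 398 and 440 FPKM. Its mean was 335 ± 148 FPKM (SD, n = 3), rank 380, and replicate 1 was well below the other libraries. miR-133a-5p had 26, 42 and 43 counts, or 97.5, 182 and 175 FPKM. Its mean of 152 ± 46.9 FPKM (SD, n = 3) ranked 468, and again replicate 1 was the lowest.

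**Figure D1:**
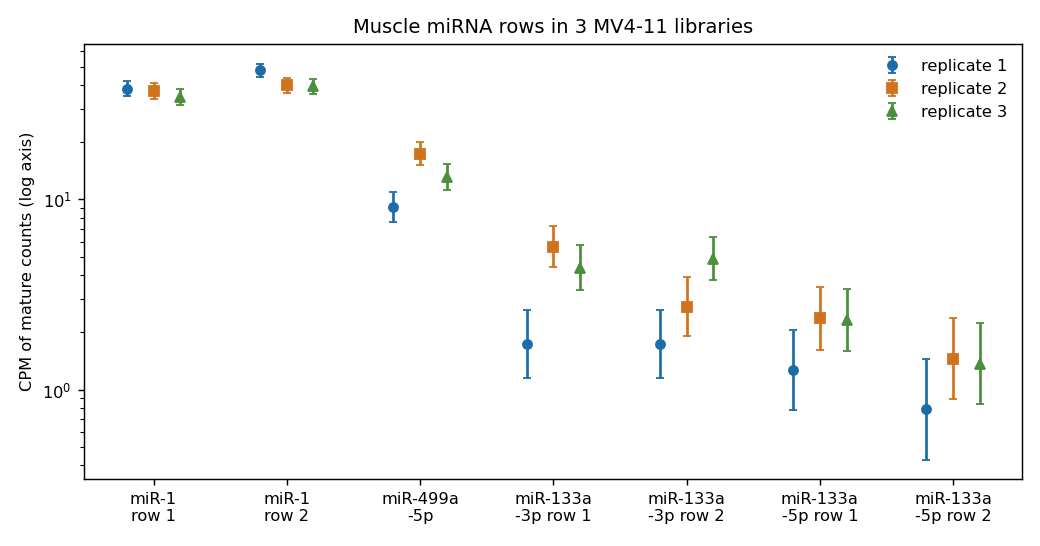
CPM, the share of mature counts on the usual scale (log axis), for the 7 mature rows of the muscle miRNAs, a point for each of the 3 replicates with its Wilson 95% interval, which covers counting error only. Both miR-1 rows sit at 34.7 to 47.7 CPM, above every other row, and replicate 1 is the lowest point for miR-499a-5p and in every miR-133a row.

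In the order of levels, the range of miR-1 did not touch that of miR-499a-5p. The ranges of miR-499a-5p and miR-133a-3p were next to each other (lowest 457 against highest 440 FPKM), and 1 SD around their means overlapped. miR-499a-5p was nevertheless the higher within each library, 2.76-, 2.18- and 1.49-fold. The ranges of miR-133a-3p and miR-133a-5p overlapped. Across all listed mature names the median was 269.5 FPKM, with quartiles of 70.7 and 3609 FPKM. No listed row stayed below 10 counts in all libraries, so ranks and quartiles are among listed miRNAs only. miR-1 thus lay just above the upper quartile, and miR-499a-5p and miR-133a-3p lay above the median. The highest mature name, miR-21-5p, reached 1.3584e+07 FPKM.

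Summed over the 7 rows, the muscle miRNAs took 1277, 1170 and 1169 counts, which was 101, 106 and 100.1 CPM, a share of the mature counts of each library. On this scale of library totals the sum was nearly the same in the 3 libraries while its makeup was not. miR-1 was 85.4% of it in replicate 1, 72.2% in replicate 2 and 74.0% in replicate 3. The share of miR-133a-3p was 3.45%, 7.86% and 9.24%, and that of miR-499a-5p was 9.08%, 16.3% and 13.1%, both lowest in replicate 1.

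The label of a blood line was checked against miRNAs that mark cell types. All 7 miRNAs of a blood list were listed, with a median of 234247 FPKM, and 6 of them were above miR-1. Among them, miR-155-5p was at 1.10089e+06, miR-142-3p at 528779 and miR-223-3p, a miRNA of myeloid cells, at 230877 FPKM, whereas miR-150-5p, a miRNA of mature lymphocytes, was at 53.2 FPKM, below all 4 muscle miRNAs. Other lists also held listed miRNAs. Of 5 in a smooth muscle and fibroblast list, 4 were listed, at a median of 7364 FPKM, and their summed level was 47042, 66835 and 80638 FPKM in replicates 1, 2 and 3, while the muscle miRNAs summed to 4811, 5109 and 4795 FPKM. The highest of them, miR-199a-3p, had 7771, 12161 and 16509 counts and made up most of that sum, and the lowest, miR-199a-5p, was at 412 FPKM. miR-143-3p, a smooth muscle miRNA, went the other way, with 4308, 2755 and 2670 counts. Outside the list, miR-199b-3p had 3868, 6162 and 8207 counts, and miR-199b-5p was at 128467 FPKM. The counts of miR-199a-3p are summed over 2 rows, and miR-199b-3p had 1 row. How far the reads of miR-199a-3p can be told from those of miR-199b-3p was not tested. The summed level therefore cannot be credited to mir-199a alone. The red cell list (3 of 3 listed) had a median of 81.7 FPKM and ran from miR-451a at 71.6 to miR-486-5p at 1006 FPKM, and the liver miRNA miR-122-5p was at 231 FPKM, below miR-499a-5p and miR-133a-3p. In the neural list, miR-9-5p at 340814 and miR-124-3p at 55618 FPKM were both above miR-1. In the epithelial list 2 of 3 were listed, miR-200c-3p at 6379 and miR-141-3p at 195.41 FPKM. The part of RNA from other cells in the muscle miRNA levels was not tested.

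A further list held 12 widely expressed miRNAs that are also described in muscle, and all 12 were listed, at a median of 199299 FPKM. Of these, 9 were above miR-1. The lowest was miR-195-5p at 447 FPKM, between miR-499a-5p and miR-133a-3p, and the highest was miR-21-5p. The median of the 4 muscle miRNAs was 497 FPKM, beside 269.5 FPKM over all mature names.

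**Figure D2:**
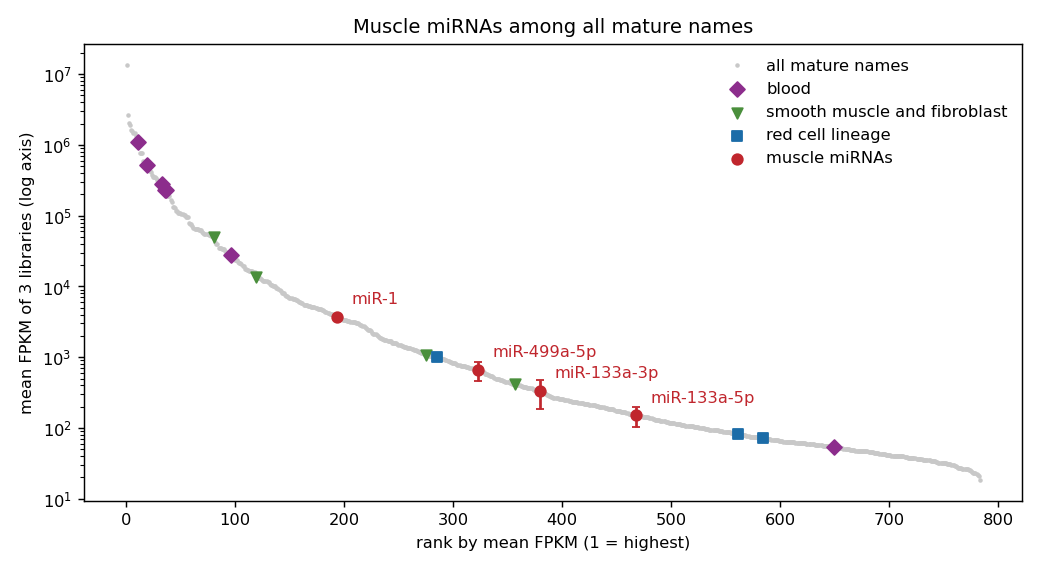
Mean FPKM of 3 libraries (log axis) against rank for all 783 mature names (grey), with the 4 muscle miRNAs (red, bars are SD), the blood list, the red cell list and the smooth muscle and fibroblast list in color. miR-1 ranks 194, miR-499a-5p 323, miR-133a-3p 380 and miR-133a-5p 468, and 6 of the 7 blood miRNAs lie above all of them.

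miR-1 and miR-133a, described as transcribed together in muscle, were found at very different levels. At the mature level miR-1 exceeded miR-133a-3p 24.7-fold in replicate 1, 9.16-fold in replicate 2 and 7.99-fold in replicate 3, as ratios of FPKM + 1. The mean log2 ratio was 3.61 ± 0.89 (SD, n = 3), and miR-1 was the higher in 3 of 3 libraries. With 3 libraries an exact two-sided sign-flip permutation test cannot give a p below 0.25. The mature ratio is given as a description, and the test across pairs was made on the hairpins. The ratio in replicate 1 was the outlying one. Counted as a share, miR-133a-3p was 3.88% of miR-1 and miR-133a-3p counts in replicate 1, with a Wilson 95% interval of 2.90 to 5.16%. Its share was 9.82% (8.07 to 11.9) and 11.1% (9.28 to 13.2) in replicates 2 and 3. The interval of replicate 1 did not meet the others, and those of replicates 2 and 3 overlapped.

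The same inequality was seen at both loci, as far as the reads can be assigned to a locus. On chromosome 18, mir-1-2 had 606, 437 and 460 counts and mir-133a-1 had 32, 46 and 73 counts, a ratio of 19.0-, 9.66- and 6.45-fold in FPKM + 1. On chromosome 20, hsa-mir-1-1 had 485, 408 and 405 counts and hsa-mir-133a-2 had 31, 78 and 79 counts, a ratio of 21.7-, 7.46- and 7.30-fold. The mean log2 ratios were 3.40 ± 0.79 and 3.40 ± 0.90 (SD, n = 3), with counts divided by hairpin length. At each locus replicate 1 had the highest ratio. The loci are not independent measurements, because the mature sequences of the copies are identical and their reads come from a shared pool.

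To set these ratios beside other hairpins that may share a transcript, every pair of adjacent listed hairpins on the same strand was tested with edgeR's quasi-likelihood test on counts scaled by hairpin length. A pair was called with an adjusted p under 0.05 (Benjamini-Hochberg) and at least a 2-fold difference. Of 85 pairs with starts within 10 kb, 58 were called (68.2%), and in 26 of these (30.6% of pairs) the upstream hairpin was the higher. mir-1-2 exceeded mir-133a-1, whose starts lie 3306 bases apart, by a log2 ratio of 3.40 ± 0.37 (SE, edgeR adjusted p = 0.00157). The starts of mir-1-1 and mir-133a-2 lie 10606 bases apart, beyond that limit. With a limit of 50 kb, chosen after seeing the data, the log2 ratio was 3.38 ± 0.42 (SE, edgeR adjusted p = 0.00243). Within that limit 67 of 102 pairs were called (65.7%), with the upstream hairpin the higher in 30 (29.4%). Without length scaling, that limit gave 2.85 ± 0.41 for mir-1-1 to mir-133a-2 and 3.35 ± 0.37 for mir-1-2 to mir-133a-1 (SE). The close match of the log2 ratios at the loci thus depended on dividing by length.

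Unequal levels were thus common among neighbouring hairpins. The median absolute log2 ratio was 1.94 over the 85 pairs, and 20 pairs had a larger ratio than mir-1-2 to mir-133a-1. Over the 102 pairs, 27 had a larger ratio than mir-1-1 to mir-133a-2. Some of these pairs share a hairpin, and no sharing of a transcript was measured here.

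**Figure D3:**
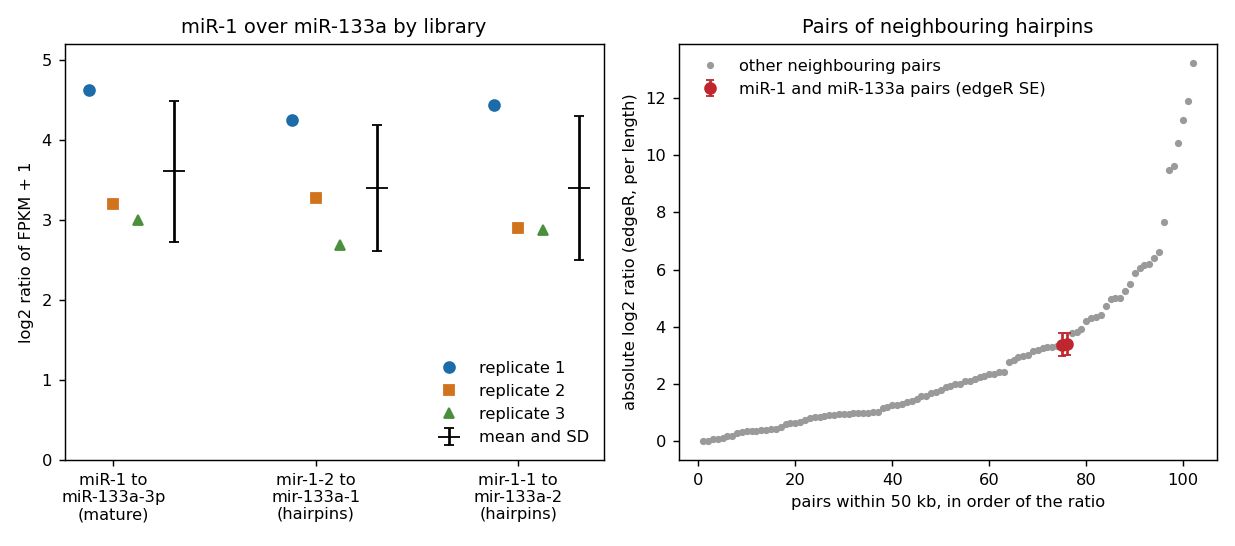
Left, log2 ratio of FPKM + 1 of miR-1 to miR-133a in each replicate for the mature forms and for the hairpins of both loci, with mean and SD. Right, absolute log2 ratio per length from edgeR for the 102 pairs of adjacent hairpins within 50 kb, with both miR-1 and miR-133a pairs in red at 3.40 and 3.38 (bars are SE), and replicate 1 is the highest point of each set on the left.

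The copies of each miRNA were counted at similar levels. Of the counts of both miR-1 hairpins, mir-1-2 took 55.5% (52.6 to 58.5, Wilson 95% interval), 51.7% (48.3 to 55.1) and 53.2% (49.8 to 56.5) in replicates 1, 2 and 3. Only the interval of replicate 1 lay above 50%. In FPKM, which divides by hairpin length, mir-1-1 was at 522 ± 25.96 and mir-1-2 at 502 ± 56.2 (SD, n = 3), the former at rank 196 of 661 hairpins, and their ranges overlapped. mir-1-2 stood at 1.04, 0.893 and 0.947 of mir-1-1 on this scale, so the order of the copies depended on whether length was divided out.

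Of the counts of both miR-133a hairpins, mir-133a-1 took 50.8% (38.8 to 62.7), 37.1% (29.1 to 45.9) and 48.0% (40.2 to 55.9). The interval of replicate 2 lay below 50%, and the intervals of all 3 replicates overlapped. In FPKM mir-133a-2 was at 53.6 ± 25.6 and mir-133a-1 at 49.5 ± 21.4 (SD, n = 3), ranks 355 and 363. Both lay below the hairpin median of 68.3 FPKM, and mir-1-1 and mir-1-2 lay above it. The share of a copy cannot be read as the activity of its locus, since how the reads that match both copies were assigned is not given in the sources used here.

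The mature rows were compared with the hairpin counts to see what the copies hold. The miR-1 rows had exactly the counts of mir-1-1 and mir-1-2 in all 3 libraries, so the hairpins held no counts beyond those of the listed miR-1 arm. For mir-133a-1 the 3p and 5p rows of 22 and 10, 30 and 16, and 57 and 16 counts summed exactly to the hairpin. The remaining miR-133a rows gave 38, 88 and 78 counts against 31, 78 and 79 for mir-133a-2, a difference of -7, -10 and 1 counts, so the hairpin held fewer reads than its arms in 2 of 3 libraries. Rows were joined to hairpins by these equal counts. Among the 44 mature names with 2 rows, 2 of 132 pairs of values were identical and 78 were within 10% of each other.

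The hairpin hsa-mir-499a had 117, 191 and 153 counts, 1 more than the miR-499a-5p row in replicate 1 and the same in the others, and its mean was 109 ± 33.6 FPKM (SD, n = 3), rank 294. Almost every read of the hairpin was therefore from the 5p arm. A second hairpin, mir-499b, lies on the opposite strand at chr20:34990400-34990472, inside the mir-499a interval. It had 6, 10 and 15 counts, and mir-499a exceeded it 19.5-, 19.1- and 10.2-fold in counts. The libraries were stranded per the study's methods, but whether counting used the strand is not given in the sources used here, so the counts of the antisense hairpins are uncertain.

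Of the muscle miRNAs, miR-133a alone had both arms listed. The 3p arm held 44 of 70, 92 of 134 and 108 of 151 counts, which was 62.9% (Wilson 95% interval 51.1 to 73.2), 68.7% (60.4 to 75.9) and 71.5% (63.9 to 78.1) in replicates 1, 2 and 3. It was the higher arm in 3 of 3 libraries, by 1.69-, 2.18- and 2.50-fold in FPKM + 1. Among 196 names with both arms listed, 161 were called different by the same edgeR test and thresholds (82.1%), with the 3p arm higher in 81 (41.3%) and the 5p arm higher in 80 (40.8%). The log2 ratio of the 5p to the 3p arm of miR-133a was -1.08 ± 0.30 (SE, edgeR adjusted p = 0.0184). Without replicate 2 the ratio was -1.05 (edgeR adjusted p = 0.150) and without replicate 3 it was -0.95 (edgeR adjusted p = 0.159), so the call rested on those libraries. The arms of miR-133a were less unequal than those of most names: the median absolute log2 ratio was 3.13, and 31 of 196 pairs had a smaller one.

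In FPKM, miR-1 was highest in replicate 1 and the other muscle miRNAs were lowest there, though after TMM or median-of-ratios scaling of the libraries miR-499a-5p in replicate 3 stood at 0.920 or 0.970 of replicate 1. From replicate 1 to replicate 2, miR-1 differed by a log2 ratio of -0.16, while miR-499a-5p differed by 0.93, miR-133a-3p by 1.27 and miR-133a-5p by 0.89. From replicate 1 to replicate 3 the log2 ratios were -0.21, 0.52, 1.41 and 0.84 in the same order. Most miRNAs were also at lower FPKM in replicate 1. The median of 483 mature names with at least 100 counts in all was 0.47 for replicate 2 over 1 and 0.54 for replicate 3 over 1. Of these names, 18.8% and 18.0% had a ratio below that of miR-1, and 82.6% and 80.5% had one below that of miR-133a-3p. Replicates 2 and 3 were closer, with log2 ratios of replicate 3 over 2 of -0.05 for miR-1, -0.41 for miR-499a-5p, 0.14 for miR-133a-3p and -0.05 for miR-133a-5p, against a median of 0.10.

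**Figure D4:**
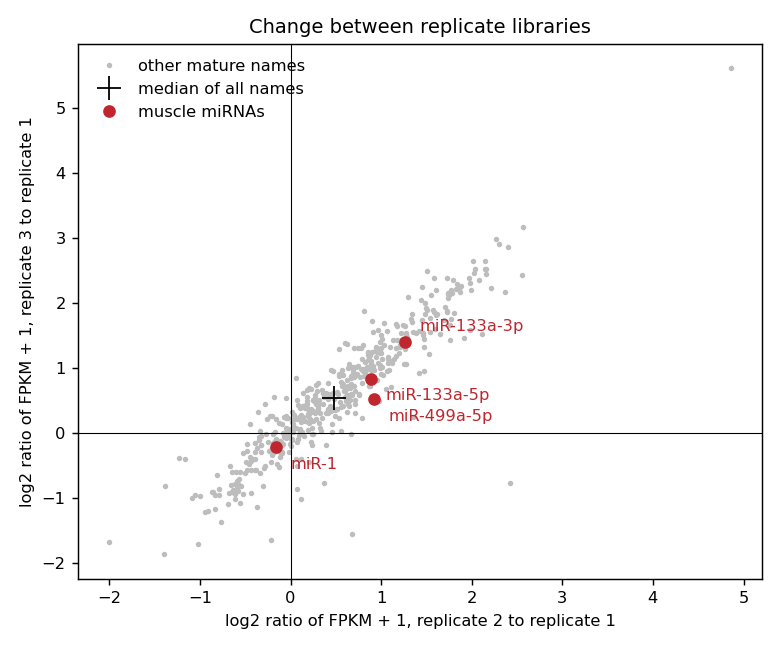
Log2 ratio of FPKM + 1 of replicate 2 (horizontal) and replicate 3 (vertical) to replicate 1 for 483 mature names with at least 100 counts in all, with the muscle miRNAs in red and the median of all names as a cross at 0.47 and 0.54. Both axes share replicate 1, so the points follow a diagonal for that reason as well, and miR-1 lies below 0 on both axes and the other muscle miRNAs lie above 0 on both in deposited FPKM, where TMM scaling would put miR-499a-5p of replicate 3 at 0.920 of replicate 1.

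The coefficient of variation of FPKM over the 3 libraries was 7.87% for miR-1, 31.2% for miR-499a-5p, 44.3% for miR-133a-3p and 31.0% for miR-133a-5p, against a median of 32.5% over all mature names. Counting error alone would give 3.27%, 8.08%, 11.1% and 16.4%. Among 88 names within 2-fold of the mean count of miR-1, the median was 23.8% and 8 had a lower value than miR-1. The same comparison gave a median of 25.7% for miR-499a-5p (69 of 119 names lower), 32.6% for miR-133a-3p (91 of 138 lower) and 31.0% for miR-133a-5p (92 of 185 lower), so the spread of these was near or above that of names at like counts. The small spread of miR-1 depended on the scaling. With TMM factors of 0.766, 1.09 and 1.19, which set most miRNAs level between libraries, miR-1 stood at 5343, 3345 and 2954 in scaled FPKM, a coefficient of variation of 33.0%. miR-133a-3p then stood at 215, 364 and 369, still lowest in replicate 1, and miR-499a-5p at 597, 794 and 549, lowest in replicate 3. The ratio of miR-1 to miR-133a within a library is the same under any such scaling.

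The names whose levels moved most like each muscle miRNA were found by the root mean square difference of log2 FPKM + 1, each name centred over the 3 libraries, among 482 other names. For miR-1 they were miR-629-5p (0.0116), miR-3177-3p (0.0151) and let-7f-1-3p (0.0222). The nearest to miR-499a-5p were miR-3609 (0.0313), miR-26a-2-3p (0.0696) and miR-146a-3p (0.0870). miR-301a-3p (0.0166), miR-1296-5p (0.0190) and miR-188-5p (0.0205) lay nearest to miR-133a-3p, and miR-2110 (0.0262), miR-181c-3p (0.0341) and miR-365a-3p (0.0411) to miR-133a-5p. None of these was a muscle miRNA, though the only muscle miRNAs among the 482 names were the few other members. Within 0.1 lay 41 names for miR-1, 5 for miR-499a-5p, 23 for miR-133a-3p and 33 for miR-133a-5p. Among the members, the closest were miR-499a-5p and miR-133a-5p at 0.160, place 25 of 482 from miR-499a-5p. miR-133a-3p lay at 0.237 from its own 5p arm and at 0.724 from miR-1, place 389 of 482 from miR-1, the most distant of the member pairs. Only 3 libraries were compared, and counting error alone was 11.1% of the level for miR-133a-3p and 16.4% for miR-133a-5p. The distances and places are therefore descriptions, and whether names vary together or apart was not tested.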

How the data were processed

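Small RNA libraries were made from total RNA (miRNeasy columns) of 3 MV4-11 EV cultures with an NEB kit and sequenced, stranded, on a HiSeq 2000. The authors counted aligned reads over mature miRNAs and primary transcripts (hairpins) of miRBase release 21. The submitters' processing notes name Novoalign 2.08.03 and the builds hg19 and mm10 with no role, and the handling of reads that match several copies is not given in the sources used here. The deposited tables hold whole read counts, not normalized, and FPKM computed by the authors from these counts. FPKM used a length 1 base below the reference length for 646 of 655 hairpins with a position. No listed row stayed below 10 counts in all libraries. The libraries had no molecular identifiers, so intervals cover counting error only. Hairpin counts summed to 12722997, 11022587 and 11715711.

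Rows of a mature name were summed. Levels are means ± SD of FPKM, and ratios used log2(FPKM + 1), which understates ratios of low miRNAs. Pairs of arms and of neighbouring hairpins were tested over all pairs by edgeR 4.0.16 (quasi-likelihood test, R 4.3.3), with the library as a block and library total and, for hairpins, length as offset. limma 3.58.1, DESeq2 1.42.0, other scalings, other filters and leaving out each replicate were alternatives. Positions came from RefSeq on GRCh38.p14 (524 hairpins) and GENCODE release 29 on GRCh38 (131), and sequences from RefSeq on GRCh38.p14. GRCh38 is not the authors' build. The miR-1 arm of the tables was taken as miR-1-3p of RefSeq. Named miRNAs were all listed members, the 3 names most like each, and the highest and lowest members of the cell type lists. Others of those lists, and mir-499b, miR-199b-3p and miR-199b-5p, were named after their values were seen. The members and lists were chosen with earlier results of these data known. Other values were computed with Python 3.11.15, scipy 1.17.1 and pandas 2.3.3.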

Additional observations from a re-analysis of the deposited data

How the results depend on the processing

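Of 102 values computed under alternatives, 85 kept their direction and call or stayed within tolerance, 15 moved further, 2 lost their call and 0 reversed. The tolerance was 1 SD between replicates for levels and ratios without a test, and 1.5 times the value for coefficients of variation and counts of pairs. With the mean of the rows of a name in place of their sum, miR-1 was at 1879, miR-133a-3p at 167 and miR-133a-5p at 75.8 FPKM. The mean would apply if every read was counted at both copies, which would give equal rows. The miR-1 rows held 485 and 606 counts in replicate 1, 408 and 437 in replicate 2, and 405 and 460 in replicate 3. The coefficient of variation under TMM and under median-of-ratios scaling was 33.0% and 30.3% for miR-1, 20.1% and 20.0% for miR-499a-5p, 27.6% and 29.5% for miR-133a-3p, and 13.3% and 14.7% for miR-133a-5p. Leaving out each replicate in turn gave 2.65 to 10.5% for miR-1, 19.9 to 43.9% for miR-499a-5p, 7.02 to 64.3% for miR-133a-3p and 2.64 to 42.7% for miR-133a-5p, each lowest without replicate 1. The cause was not tested. The mature log2 ratio of miR-1 to miR-133a-3p was 3.10 to 3.91 without a replicate, 58 to 60 neighbouring pairs within 10 kb and 140 to 169 arm pairs were called, and both miR-1 and miR-133a hairpin pairs kept their calls under every alternative run for them. The miR-133a arms lost their call without replicate 2 (-1.05) and without replicate 3 (-0.95). No paired analysis was possible because the series has no second group to pair with, and ratios of arms and hairpins were taken within each library. Depth limits the miR-133a rows, which had 10 to 62 counts per library. With the rows of each arm summed, counting error was 11.1% for the 3p and 16.4% for the 5p arm. It is larger for a single row.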
